A study of Mus musculus with 8 samples.

Results

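The genes described here are 47 genes of the cell cycle and of DNA replication, looked up by symbol among the 22180 genes that the arrays measured with a probe cluster of their own. A probe cluster is the set of probes for 1 transcript, and the brightest one by its mean over all 8 arrays stood for a gene with several. Of the 47 genes, 45 had such a cluster and all 45 passed the filter on low values, among 13508 genes tested. Ccnb1 (cyclin B1) and Ccne2 (cyclin E2) had no cluster of their own and were not analysed here. By role, 13 genes act in licensing and replication, 11 are cyclins, kinases, a phosphatase and E2F factors of the G1 and S phases, 18 act in mitosis and 3 encode inhibitors of cyclin-dependent kinases.

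The arrays compared T cells from C57BL/6 animals, 6 to 8 weeks old and either wild type or CCR2-/-, which lack a chemokine receptor of monocytes and activated T cells. CD4+CD25- T cells were taken from the spleen by flow sorting and split by their surface CD45RB, an isoform of the phosphatase CD45 that naive T cells carry at a high level and antigen-experienced T cells at a lower one. All 4 groups (wild type or CCR2-/-, CD45RBhigh or CD45RBlow) were stimulated on plates coated with antibodies to CD3 and CD28, so no group holds resting cells, and each group has 2 arrays. The labels disagree on how long: 48 h in the protocols of the samples, 2 h in the design text. The labels do not say whether the CCR2-/- allele acts in the T cells alone, how many mice were pooled, or whether replicates came from separate mice, so the tests measure only the spread between these arrays.

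A resting T cell sits outside the cell cycle and carries little transcript for DNA replication or mitosis. Engagement of the T cell receptor and CD28 first induces D-type cyclins, which with Cdk4 and Cdk6 inactivate the retinoblastoma protein and release E2F factors. E2F factors then raise the genes of replication. These include the Mcm helicase, its loaders Cdc6 and Cdt1, the clamp Pcna, and the nucleotide enzymes Rrm1, Rrm2 and Tyms. A later wave raises the genes of mitosis through complexes of MuvB with B-Myb and Foxm1. The inhibitors Cdkn1a (p21), Cdkn1b (p27) and Cdkn2c (p18) restrain the kinases.

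Many promoters of these genes carry letters linked to the 2 waves, and a few are shown as examples. RefSeq windows of GRCm38.p6, from 250 bases before to 50 bases after an annotated start, were found for 37 of the 47 genes and for 27025 genes in all. Both strands were searched for E2F-type letters (TTTCCCGC, TTTCGCGC, TTTGCCGC or TTTGGCGC), for letters of the cell cycle homology region, CHR-type (TTTGAA or TTTAAA), and for the CCAAT box (CCAAT). The sequences printed below are the 170 bases before the start, 5′ to 3′ on the strand of the gene, except for E2f8, where other transcripts start upstream and only 30 bases are given. Capitals mark the E2F-type letters of Mcm6 (chr1:128359706-128359875, minus strand), a helicase subunit, and Cdk2 (chr10:128705052-128705221, minus strand), the S phase kinase. In Mcm6, matches on the opposite strands overlap. For Cdk1 (chr10:69352913-69353082, minus strand), the mitotic kinase, Cdc20 (chr4:118437344-118437513, minus strand), an activator of the anaphase-promoting complex, and Kif11 (chr19:37376212-37376381, plus strand), a spindle motor, capitals mark the CHR-type letters and CCAAT boxes. The same marks were used for E2f8 (chr7:48881597-48881626, minus strand), an E2F factor that represses transcription. Matches of the other kinds were left in lower case, so the marks cannot be compared between roles. Unmarked CCAAT boxes stand from 57 to 53 and from 14 to 10 bases before the start of Mcm6 and from 45 to 41 before that of Cdk2. Unmarked E2F-type letters stand from 131 to 124 bases before the start of Cdk1.
Mcm6: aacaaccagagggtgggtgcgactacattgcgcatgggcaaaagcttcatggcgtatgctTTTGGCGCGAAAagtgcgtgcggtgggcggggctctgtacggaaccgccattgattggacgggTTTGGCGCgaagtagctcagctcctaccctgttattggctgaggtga
Cdk2: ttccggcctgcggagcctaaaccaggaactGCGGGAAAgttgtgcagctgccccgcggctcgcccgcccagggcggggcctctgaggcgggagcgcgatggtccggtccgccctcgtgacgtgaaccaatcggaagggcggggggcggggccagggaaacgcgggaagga
Cdk1: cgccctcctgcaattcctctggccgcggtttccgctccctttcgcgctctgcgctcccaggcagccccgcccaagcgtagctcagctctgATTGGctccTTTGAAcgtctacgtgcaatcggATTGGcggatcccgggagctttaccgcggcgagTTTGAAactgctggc
Cdc20: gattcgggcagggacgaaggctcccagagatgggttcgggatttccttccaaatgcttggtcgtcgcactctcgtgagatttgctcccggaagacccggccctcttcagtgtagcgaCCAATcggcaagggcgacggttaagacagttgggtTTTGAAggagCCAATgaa
Kif11: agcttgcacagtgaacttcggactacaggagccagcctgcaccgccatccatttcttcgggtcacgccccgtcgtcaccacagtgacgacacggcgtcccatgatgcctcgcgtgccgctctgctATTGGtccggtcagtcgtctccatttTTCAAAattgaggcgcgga
E2f8: gcgggttaatTTCAAAtcgggggctggact

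E2F-type letters stood in the windows of 6 of 11 licensing and replication genes (54.5%; Mcm3, Mcm5, Mcm6, Mcm7, Cdc6 and Cdt1), in 3 of 9 genes of G1 and S (33.3%; Cdk2, Cdc25a and E2f2) and in 1 of 14 mitosis genes (7.14%; Cdk1), against 2.6% of all genes with a window. The CHR-type letters showed the opposite order. They stood in 13 of 14 mitosis genes (92.9%), in 3 of 11 replication genes (27.3%) and in 3 of 9 genes of G1 and S (33.3%), against 30.6% of all genes. CCAAT boxes were found in 13 of 14 mitosis genes (92.9%), 8 of 11 replication genes (72.7%) and 5 of 9 genes of G1 and S (55.6%), against 41.1% of all genes. The E2f8 window held CHR-type letters from 20 to 15 bases before its start and a CCAAT box from 112 to 108 bases before it, and no E2F-type letters. A match is a run of letters and says nothing of whether a factor bound there in these cells.

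The 8 arrays had medians between 4.92 and 5.05 on the log2 scale. Of the T cell markers, Cd4 lay between the 98.2nd and 98.7th percentile of an array and Cd3e between the 99.4th and 99.7th, while the CD8 markers Cd8a and Cd8b1 lay between the 33.6th and 49.4th and between the 70.5th and 84.3rd. The 2 replicate numbers differed in sex-linked genes: on replicate 1 arrays Xist lay between 4.45 and 5.02 and the Y-linked Kdm5d between 8.83 and 9.13, and on replicate 2 arrays Xist lay between 11.74 and 12.07 and Kdm5d between 7.58 and 7.78. With such values the 2 numbers cannot have come from the same mice, and a difference between them cannot be told apart from one of sex. Each group has 1 array of each number. Ccr2 lay between 4.26 and 5.15 on all arrays, and which of its exons are deleted or probed is not known here, so it does not check the genotype labels. In the values below, replicate 1 of a group stands before replicate 2.

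Replication and mitosis genes were abundant in all 4 groups. Of the 45 genes, 33 lay at or above the 90th percentile of all 41034 clusters on every array, 41 at or above the 75th and 20 at or above the 95th. These clusters include 15699 unnamed ones and genes that did not pass the filter. The share of all tested genes at such percentiles was not computed. The mean log2 level per array ran from 10.65 to 10.84 over the licensing and replication genes, from 10.32 to 10.50 over the mitosis genes, from 9.52 to 9.74 over the G1 and S genes and from 8.78 to 9.14 over the inhibitors. Levels of different probe clusters are not on a common scale of molecules, so these means and percentiles place the genes within an array only. A single gene lay below the 60th percentile on all arrays, Ccnd1 (cyclin D1), a D-type cyclin that lymphocytes use little. Its log2 level was 4.82 and 4.78 in wild-type CD45RBhigh, 4.69 and 4.73 in wild-type CD45RBlow, 4.73 and 4.79 in CCR2-/- CD45RBhigh and 4.67 and 4.59 in CCR2-/- CD45RBlow cells, which is the 38.4th to 47.5th percentile and close to the filter level of 4.53 to 4.63. The other D-type cyclins, Ccnd2 and Ccnd3, lay in the upper part of the arrays.

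Mki67, which encodes the proliferation marker Ki-67, had log2 levels of 11.42 and 11.32 in wild-type CD45RBhigh, 11.36 and 11.41 in wild-type CD45RBlow, 11.42 and 11.16 in CCR2-/- CD45RBhigh and 11.33 and 11.54 in CCR2-/- CD45RBlow cells. The arrays of all 4 groups overlapped. Pcna, the sliding clamp of the replicative polymerases, was at 12.16 and 12.10 in wild-type CD45RBhigh, 12.06 and 12.12 in wild-type CD45RBlow, 12.06 and 12.11 in CCR2-/- CD45RBhigh and 12.21 and 12.06 in CCR2-/- CD45RBlow cells, a range of 0.15 log2 units over all arrays. Cdk1, the kinase that drives mitotic entry, was at 11.26 and 11.21 in wild-type CD45RBhigh, 11.22 and 11.30 in wild-type CD45RBlow, 11.30 and 11.42 in CCR2-/- CD45RBhigh and 11.28 and 11.41 in CCR2-/- CD45RBlow cells. Its subsets overlapped, and both CCR2-/- CD45RBhigh arrays lay above both wild-type CD45RBhigh arrays. In CD45RBhigh cells the genotypes were separated in this way, in either direction, in 26.4% of all genes tested. The median range over the 8 arrays was 0.35 log2 units for the 45 genes, from 0.08 (Ube2c, a ubiquitin-conjugating enzyme of the anaphase-promoting complex) to 0.80 (Cdt1), against 0.48 for all genes tested. In 35 of the 45 genes (77.8%) the arrays lay within 0.5 log2 units of each other, against 53.5% of all genes tested.

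**Figure D1:**
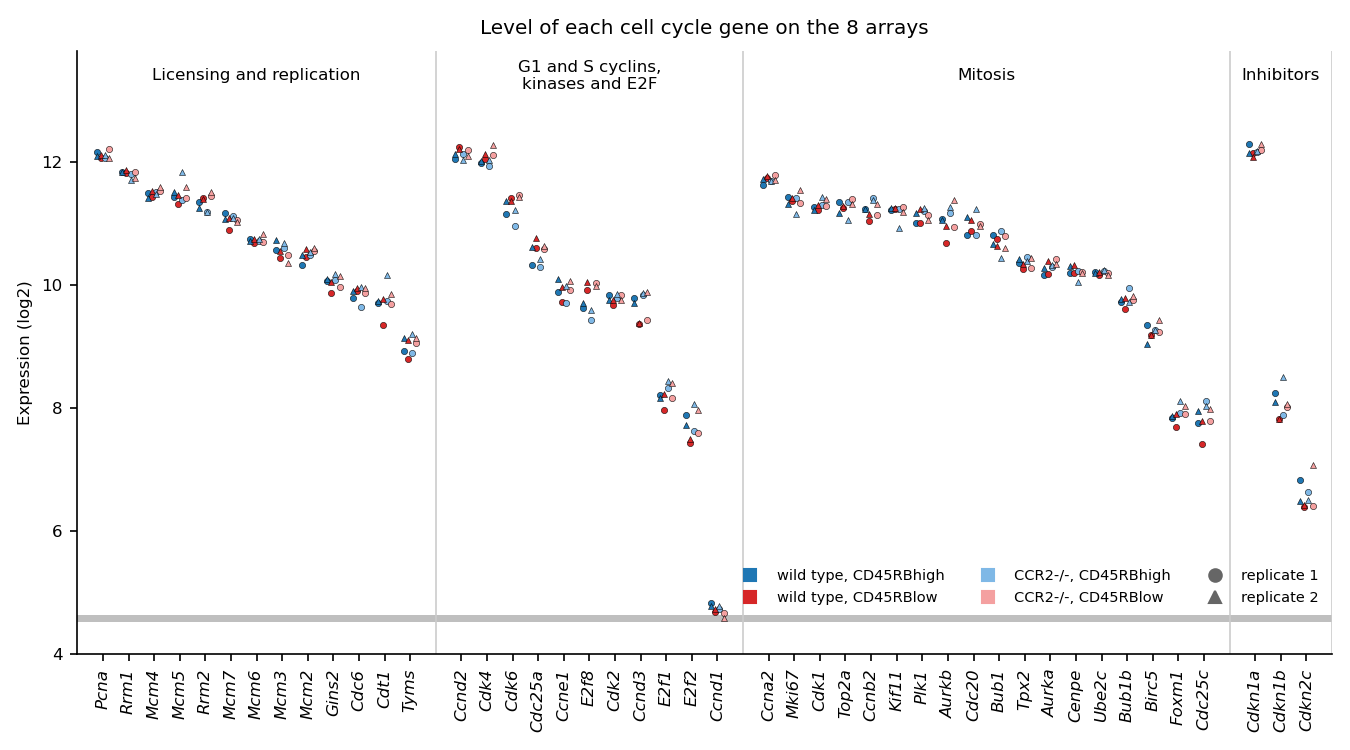
Log2 expression (y axis) of each of the 45 cell cycle genes (x axis, ordered by mean level within its role) on the 8 arrays. Colours are the 4 groups, circles are replicate 1 and triangles replicate 2, and the grey band is the filter level of 4.53 to 4.63. Most genes sit far above the band on all 8 arrays, and Ccnd1 sits at it.

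The labels give both 48 h and 2 h as the stimulation time, and the levels of several lists are given here beside that. As background, replication and mitosis transcripts are scarce in resting T cells and accumulate only as stimulated cells approach S phase, many hours after receptor engagement, while immediate early genes such as Fos peak within the opening hours. In these arrays Mki67 lay between 11.16 and 11.54 and Cdk1 between 11.21 and 11.42 on the log2 scale. The 17 immediate early genes that passed the filter, of 19 listed, were mostly well above the middle of the arrays, with a median between the 83.6th and 89.3rd percentile. Nr4a1, a nuclear receptor induced by T cell receptor signals, lay between 10.36 and 11.98, and the activation marker Cd69 between 11.78 and 12.29. Low among them was Fos, a subunit of the AP-1 factor, between 4.40 and 5.91 (32.8th to 61.1st percentile), and Fosb, a related subunit, lay between 4.18 and 4.50 and did not pass. The 13 tested genes of resting T cells, of 15 listed, were also high as a list, with a median between the 91.1st and 94.3rd percentile, among them Ccr7, the lymph node homing receptor (10.80 to 12.17). Klf2 and S1pr1, which keep resting T cells in circulation, were lower, between 4.96 and 5.39 and between 5.56 and 6.41. No unstimulated or timed array is among the 4 groups, and the duration was not tested.

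The comparison of the sorted subsets asked whether CD45RBlow and CD45RBhigh cells differed in their cell cycle genes. Averaged over the genotypes, 1 of the 45 genes passed the test, E2f8, with more transcript in CD45RBlow cells. The test was limma's, with p-values adjusted by Benjamini-Hochberg over all 13508 genes and a threshold of 0.05, and it called 3.03% of all genes tested. At an unadjusted p under 0.05 there were 5 cell cycle genes (11.1%), namely E2f8, Rrm2, Cdk6, Cdc25a and Ccnd3, against 18.1% of all genes. The median difference of the 45 genes, CD45RBlow minus CD45RBhigh, was -0.016 on the log2 scale, against -0.008 for all genes tested. In 44 of the 45 genes the 95% confidence interval of the difference lay within 1.5-fold in either direction, E2f8 being the exception, and 82.9% of all genes had such an interval. With the replicate number as a block, limma again called E2f8 alone among the 45, while its share of all genes rose to 5.61%.

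E2f8 encodes an atypical E2F factor that represses E2F target genes in S phase. Its log2 level was 9.63 and 9.70 in wild-type CD45RBhigh, 9.92 and 10.04 in wild-type CD45RBlow, 9.43 and 9.60 in CCR2-/- CD45RBhigh and 10.03 and 9.98 in CCR2-/- CD45RBlow cells. Every CD45RBlow array was above every CD45RBhigh array. The difference was 0.30 and 0.34 in wild-type replicates 1 and 2 and 0.61 and 0.38 in CCR2-/- replicates 1 and 2. Averaged over the genotypes it was 0.41 (standard error 0.08, 95% confidence interval 0.22 to 0.59, 1.32-fold), with an adjusted p of 0.0456 by limma, or 0.0306 with the replicate block. Within wild type it was 0.32 (adjusted p = 0.429 by limma) and within CCR2-/- cells 0.49 (adjusted p = 0.137). With each array left out in turn, the E2f8 difference ran from 0.36 to 0.45. The call was kept only without replicate 2 of CCR2-/- CD45RBhigh cells. Such a fit has fewer arrays for every gene and 1 array in a group. A lost call therefore does not by itself show that E2f8 depended on the array left out. Markers of other lymphocytes differed between the subsets in the opposite direction: the mean log2 level of the 7 B cell markers in the table, of 8 listed, was 5.26 to 6.10 on the CD45RBhigh arrays and 5.00 to 5.12 on the CD45RBlow arrays. Of these 7, Ighm, an antibody heavy chain, lay between 10.47 and 11.00 on the CD45RBhigh and between 9.64 and 9.93 on the CD45RBlow arrays. Cd79a, Ms4a1 and Cd22 reached the filter level only on replicate 1 CD45RBhigh arrays, and Pax5 and Blk did not pass it. Cd79b was at 6.18 and 5.31 in wild-type CD45RBhigh, 4.94 and 5.27 in wild-type CD45RBlow, 6.85 and 5.22 in CCR2-/- CD45RBhigh and 4.96 and 5.14 in CCR2-/- CD45RBlow cells. Apart from Ighm, the B cell marker difference was thus mostly one of replicate 1. The mean of the 2 CD8 T cell markers, Cd8a and Cd8b1, on the same arrays was 6.16 to 6.84 and 5.80 to 5.93. Their part in the result was not tested, and in such bulk samples fewer cells of a type cannot be told apart from less RNA per cell.

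The other kinases, cyclins and E2F factors of G1 and S did not pass. Cdk6, a partner of the D-type cyclins in T cells, was at 11.16 and 11.37 in wild-type CD45RBhigh, 11.41 and 11.37 in wild-type CD45RBlow, 10.96 and 11.22 in CCR2-/- CD45RBhigh and 11.47 and 11.43 in CCR2-/- CD45RBlow cells, a difference of 0.24 (interval 0.03 to 0.46, limma adjusted p = 0.221) that was -0.001 between the replicate 2 arrays of wild type. Cdc25a, the phosphatase that activates Cdk2, was named after its values were seen. It was at 10.32 and 10.62 in wild-type CD45RBhigh, 10.60 and 10.76 in wild-type CD45RBlow, 10.29 and 10.43 in CCR2-/- CD45RBhigh and 10.59 and 10.64 in CCR2-/- CD45RBlow cells, and the difference of 0.23 (interval 0.01 to 0.46, limma adjusted p = 0.262) had the same sign in 4 of 4 pairs of arrays with the same genotype and replicate number. Ccnd3, cyclin D3, was at 9.79 and 9.70 in wild-type CD45RBhigh, 9.36 and 9.39 in wild-type CD45RBlow, 9.83 and 9.88 in CCR2-/- CD45RBhigh and 9.42 and 9.89 in CCR2-/- CD45RBlow cells. Its CD45RBlow arrays lay below all CD45RBhigh arrays, except CCR2-/- CD45RBlow replicate 2, which lay above them, with a mean difference of -0.28 (interval -0.54 to -0.02, limma adjusted p = 0.235). Ccnd2, the other D-type cyclin of T cells, was at 12.05 and 12.12 in wild-type CD45RBhigh, 12.24 and 12.21 in wild-type CD45RBlow, 12.13 and 12.04 in CCR2-/- CD45RBhigh and 12.19 and 12.10 in CCR2-/- CD45RBlow cells, and its 4 pairs all had the higher value in CD45RBlow cells, by 0.06 to 0.19. Ccnd1 differed by -0.11 at its low level.

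Cyclin E1 and the activating E2F factors did not pass either. Ccne1 (cyclin E1), the partner of Cdk2 at the start of S phase, was at 9.88 and 10.09 in wild-type CD45RBhigh, 9.73 and 9.96 in wild-type CD45RBlow, 9.70 and 9.98 in CCR2-/- CD45RBhigh and 9.91 and 10.07 in CCR2-/- CD45RBlow cells. Its subset differences had opposite signs in the genotypes, -0.14 in wild type and 0.15 in CCR2-/- cells, and the averaged difference was 0.004 (interval -0.25 to 0.26). E2f1, an activator of the replication genes, was at 8.21 and 8.15 in wild-type CD45RBhigh, 7.97 and 8.23 in wild-type CD45RBlow, 8.32 and 8.45 in CCR2-/- CD45RBhigh and 8.16 and 8.40 in CCR2-/- CD45RBlow cells, a difference of -0.09 (interval -0.32 to 0.13). E2f2, another activating E2F factor, named after its values were seen, was at 7.89 and 7.73 in wild-type CD45RBhigh, 7.43 and 7.50 in wild-type CD45RBlow, 7.63 and 8.06 in CCR2-/- CD45RBhigh and 7.60 and 7.97 in CCR2-/- CD45RBlow cells. It was lower in CD45RBlow cells in 4 of 4 pairs, by a mean difference of -0.20 (interval -0.50 to 0.10) that was -0.34 in wild type and -0.06 in CCR2-/- cells. None of these passed limma's test (adjusted p = 0.992 for Ccne1, 0.696 for E2f1 and 0.48 for E2f2).

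**Figure D2:**
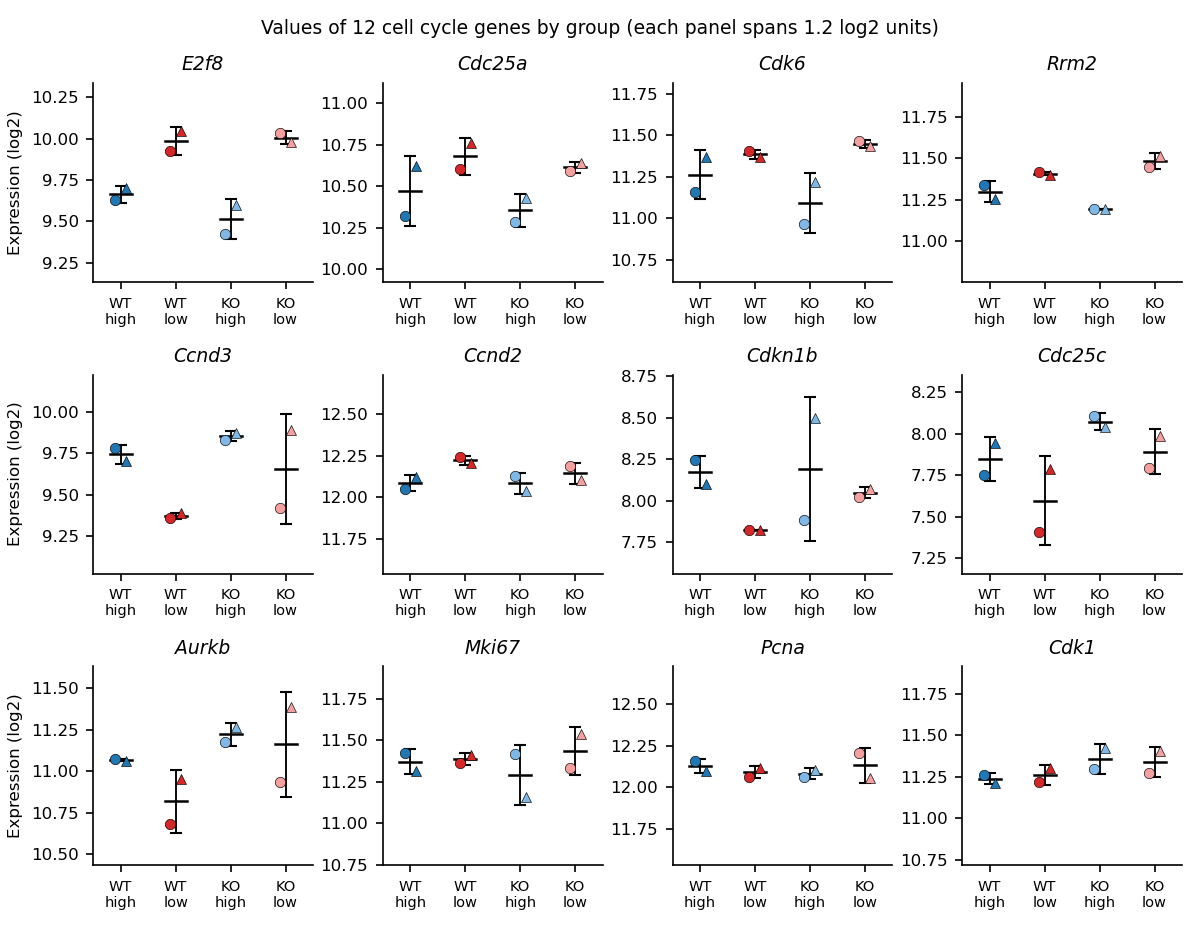
Log2 expression (y axis) of 12 cell cycle genes in the 4 groups (x axis; WT is wild type, KO is CCR2-/-, high and low are the CD45RB subsets). Circles are replicate 1, triangles replicate 2, lines with bars the mean ± SD of 2 arrays, and all panels span the same height. For E2f8 the CD45RBlow arrays (9.92 to 10.04) all lie above the CD45RBhigh arrays (9.43 to 9.70), while Pcna, Cdk1 and Mki67 overlap between the subsets.

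Among the 13 licensing and replication genes, 7 differences between subsets were above 0 and 6 below, with a median of 0.005, and limma called none of them. Rrm2, the regulated subunit of ribonucleotide reductase, was at 11.34 and 11.25 in wild-type CD45RBhigh, 11.41 and 11.40 in wild-type CD45RBlow, 11.19 and 11.19 in CCR2-/- CD45RBhigh and 11.45 and 11.52 in CCR2-/- CD45RBlow cells. All CD45RBlow arrays lay above all CD45RBhigh arrays, by 0.07 and 0.15 in the wild-type pairs and by 0.25 and 0.32 in the CCR2-/- pairs. The mean difference was 0.20 (interval 0.03 to 0.37, limma adjusted p = 0.195), and a dimmer second Rrm2 cluster (5.26 to 5.91) differed by 0.04. Mcm3, a subunit of the Mcm helicase, differed in the opposite direction, with its lowest CD45RBhigh and highest CD45RBlow array nearly equal, at 10.56 and 10.73 in wild-type CD45RBhigh, 10.44 and 10.56 in wild-type CD45RBlow, 10.61 and 10.68 in CCR2-/- CD45RBhigh and 10.48 and 10.36 in CCR2-/- CD45RBlow cells. It differed by -0.19 (interval -0.38 to 0.01, limma adjusted p = 0.295). Mcm2, another subunit, was at 10.32 and 10.48 in wild-type CD45RBhigh, 10.45 and 10.58 in wild-type CD45RBlow, 10.49 and 10.54 in CCR2-/- CD45RBhigh and 10.56 and 10.59 in CCR2-/- CD45RBlow cells, a difference of 0.09 (interval -0.10 to 0.27). The helicase subunits therefore had differences of both signs.

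Cdt1, which loads the Mcm helicase, had the widest spread, at 9.70 and 9.75 in wild-type CD45RBhigh, 9.36 and 9.77 in wild-type CD45RBlow, 9.74 and 10.16 in CCR2-/- CD45RBhigh and 9.69 and 9.85 in CCR2-/- CD45RBlow cells. Its lowest array was wild-type CD45RBlow replicate 1 and its highest CCR2-/- CD45RBhigh replicate 2, and the mean subset difference was -0.17 (interval -0.48 to 0.14, limma adjusted p = 0.577). Mcm5 was at 11.43 and 11.52 in wild-type CD45RBhigh, 11.31 and 11.46 in wild-type CD45RBlow, 11.39 and 11.83 in CCR2-/- CD45RBhigh and 11.41 and 11.60 in CCR2-/- CD45RBlow cells, with the highest value on the same CCR2-/- CD45RBhigh array and a difference of -0.10 (interval -0.37 to 0.18). Pcna differed by 0.006 between subsets (interval -0.17 to 0.18).

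Of the 18 mitosis genes, 8 differences were above 0 and 10 below, from -0.22 (Cdc25c) to 0.08 (Mki67 and Top2a, a topoisomerase of mitotic chromosomes), with a median of -0.013, and limma called none; 0 had an unadjusted p under 0.05. Ccnb2, cyclin B2, was at 11.24 and 11.23 in wild-type CD45RBhigh, 11.05 and 11.16 in wild-type CD45RBlow, 11.42 and 11.38 in CCR2-/- CD45RBhigh and 11.13 and 11.32 in CCR2-/- CD45RBlow cells, below 0 in 4 of 4 pairs (from -0.29 to -0.06), with a mean difference of -0.15 (interval -0.34 to 0.03, limma adjusted p = 0.377). Cdc25c, the phosphatase that activates Cdk1, was at 7.75 and 7.94 in wild-type CD45RBhigh, 7.41 and 7.79 in wild-type CD45RBlow, 8.11 and 8.04 in CCR2-/- CD45RBhigh and 7.80 and 7.99 in CCR2-/- CD45RBlow cells. Its 4 pair differences ran from -0.34 to -0.05, and the subsets overlapped within wild type and not within CCR2-/- cells (interval of the mean difference -0.48 to 0.04, limma adjusted p = 0.368). Aurkb, a kinase of chromosome segregation, was at 11.07 and 11.06 in wild-type CD45RBhigh, 10.68 and 10.95 in wild-type CD45RBlow, 11.17 and 11.27 in CCR2-/- CD45RBhigh and 10.94 and 11.39 in CCR2-/- CD45RBlow cells. Wild-type CD45RBlow replicate 1 was lowest and CCR2-/- CD45RBlow replicate 2 highest, and the mean difference of -0.16 had an interval of -0.44 to 0.12. Mki67 differed by 0.08 (interval -0.14 to 0.30) and Cdk1 by 0.002 (interval -0.18 to 0.19), neither passing limma's test.

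The 3 inhibitors all had mean differences below 0, and limma called none; 0 had an unadjusted p under 0.05. Cdkn1a (p21), which rises with mitogenic and p53 signals, was at 12.30 and 12.15 in wild-type CD45RBhigh, 12.14 and 12.09 in wild-type CD45RBlow, 12.16 and 12.17 in CCR2-/- CD45RBhigh and 12.19 and 12.29 in CCR2-/- CD45RBlow cells, a difference of -0.016 (interval -0.20 to 0.16). Cdkn1b (p27), which is high in quiescent T cells and degraded on cycle entry, was at 8.24 and 8.10 in wild-type CD45RBhigh, 7.82 and 7.82 in wild-type CD45RBlow, 7.88 and 8.50 in CCR2-/- CD45RBhigh and 8.02 and 8.07 in CCR2-/- CD45RBlow cells. Its wild-type CD45RBlow arrays lay below all others, CCR2-/- CD45RBhigh replicate 2 was highest, and the mean difference was -0.25 (interval -0.56 to 0.07, limma adjusted p = 0.4). Cdkn2c (p18), an inhibitor of Cdk4 and Cdk6, was at 6.83 and 6.49 in wild-type CD45RBhigh, 6.40 and 6.42 in wild-type CD45RBlow, 6.64 and 6.51 in CCR2-/- CD45RBhigh and 6.41 and 7.07 in CCR2-/- CD45RBlow cells, with a difference of -0.04 (interval -0.40 to 0.32) and its highest value on CCR2-/- CD45RBlow replicate 2.

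**Figure D3:**
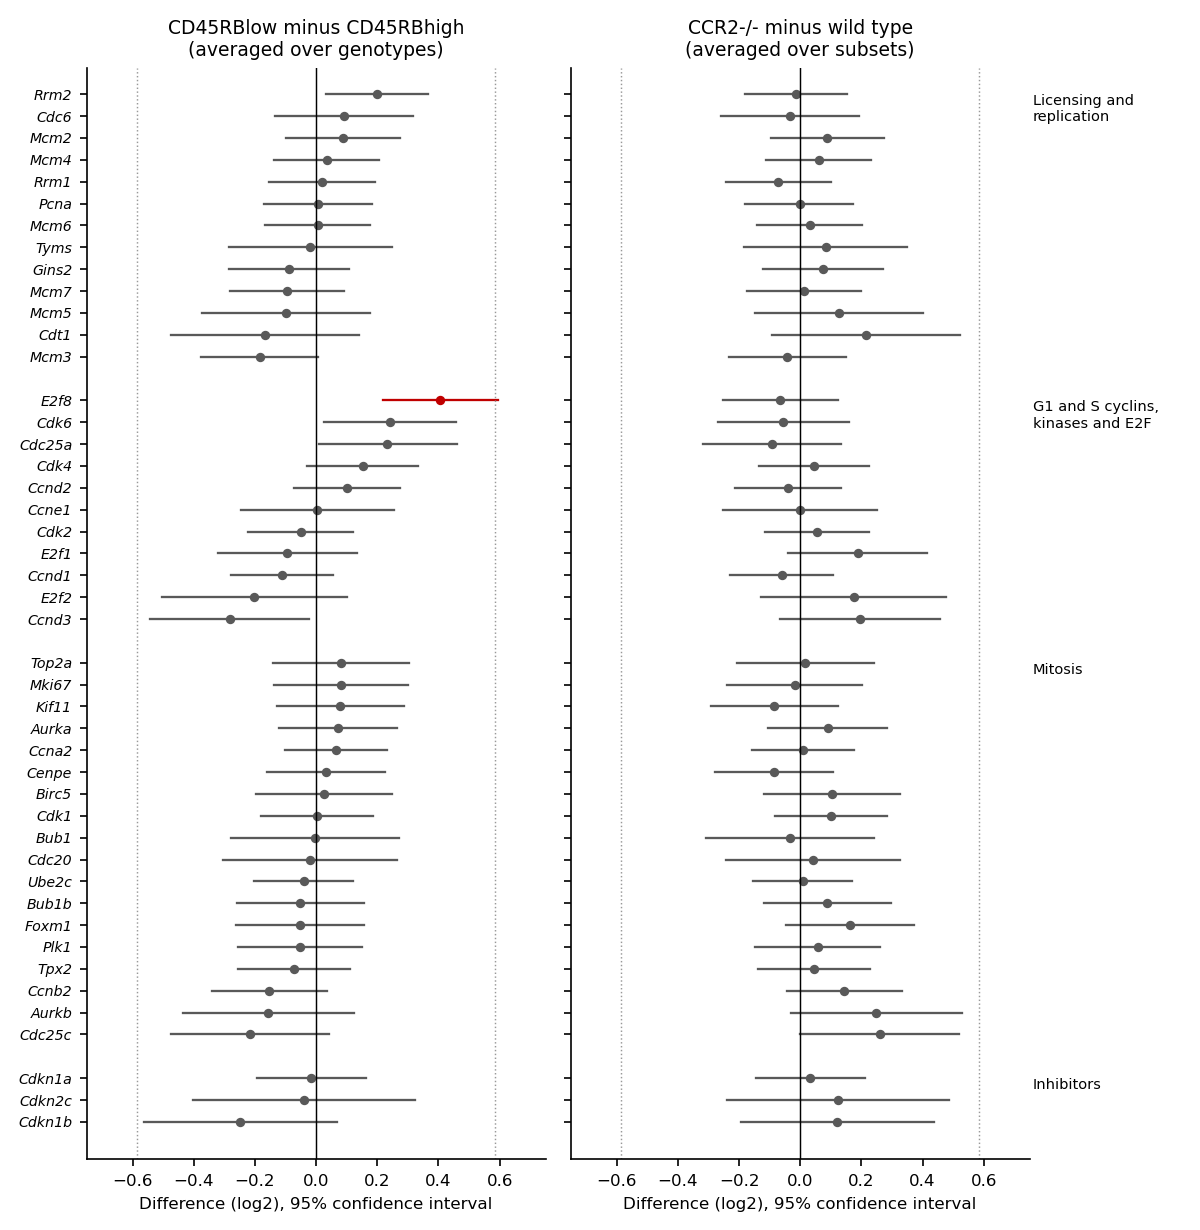
Log2 differences (x axes) of the 45 genes (y axis, by role), CD45RBlow minus CD45RBhigh on the left and CCR2-/- minus wild type on the right, each averaged over the other factor; points are limma estimates, bars 95% confidence intervals, dotted lines 1.5-fold. E2f8 (0.41, left, red) is the one gene with an adjusted p under 0.05, and all 45 intervals on the right lie within 1.5-fold.

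Within a genotype fewer genes could be called. In wild type limma called 0 of the 45 genes (2 at an unadjusted p under 0.05) and 0.0888% of all genes, or 0 of the 45 and 0.77% with the replicate block. In CCR2-/- cells it called 0 of the 45 (3 at an unadjusted p under 0.05) and 0.333% of all genes, or 0 of the 45 and 1.45% with the block. The median differences of the 45 genes were -0.035 in wild type and 0.028 in CCR2-/- cells. Of their intervals, 38 and 40 lay within 1.5-fold, against 68% and 64.2% of those of all genes. Over pairs of arrays with the same genotype and replicate number, 9 genes (20%) were higher in CD45RBlow cells in 4 of 4 pairs, Mcm2, Rrm2, Ccnd2, Cdk4, Cdc25a, E2f8, Ccna2, Aurka and Kif11, and 6 (13.3%) were lower in 4 of 4, Mcm3, Gins2, Ccnd1, E2f2, Ccnb2 and Cdc25c. These shares were near those of all genes, 15.1% and 18.7%. The 4 arrays of one subset did not overlap the 4 of the other in 5 genes, Mcm3, Rrm2, Ccnd1, Cdk4 and E2f8, against 14.3% of all genes and beside 3.03% called by limma.

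Wider lists of genes of the same pathways gave a like picture. Limma called 0 of 44 other replication genes (5 at an unadjusted p under 0.05; median difference 0.006), 0 of 54 other mitosis genes (1; -0.005) and 0 of 42 other regulators of the cycle (10; 0.024). With the replicate block Gadd45b, a stress-induced gene named after its values were seen, passed among the regulators (-0.69, adjusted p = 0.0351). Among 17 immediate early genes, 16 differences were below 0 (7040 of 13508 for all genes, of which limma called 3.03%), limma called 1 up and 1 down, and with the block 1 up and 4 down. All 17 were also higher on replicate 2 than on replicate 1, averaged over the groups, by a median of 0.39 against a median subset difference of -0.27. Of all genes tested, 58.7% were higher on replicate 2, with a median difference of 0.033. Egr2, a factor that restrains T cell activation, rose by 0.79 (adjusted p = 0.0339 by limma), and Nr4a3, a nuclear receptor of the Nr4a family, fell by 0.63 (adjusted p = 0.0332). Of 13 genes of resting T cells Ccr7 fell by 0.94 (adjusted p = 0.0303), and it was the single call of that list. With 1 array left out, which leaves fewer arrays for every gene, the Egr2 difference ran from 0.63 to 0.94. That of Nr4a3 ran from -0.74 to -0.51 and that of Ccr7 from -1.08 to -0.80. Egr2 and Ccr7 passed only without a CCR2-/- CD45RBhigh array, and Nr4a3 only without replicate 2 of either CCR2-/- group. Within wild type the smallest p-values of the wider lists were those of Ccr7 (-0.98, adjusted p = 0.225 by limma and 0.042 with the replicate block) and Nr4a3 (-0.54, adjusted p = 0.313), and within CCR2-/- cells those of Egr2 (0.94, adjusted p = 0.112 and 0.0474 with the block) and Nr4a3 (-0.71, adjusted p = 0.126).

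**Figure D4:**
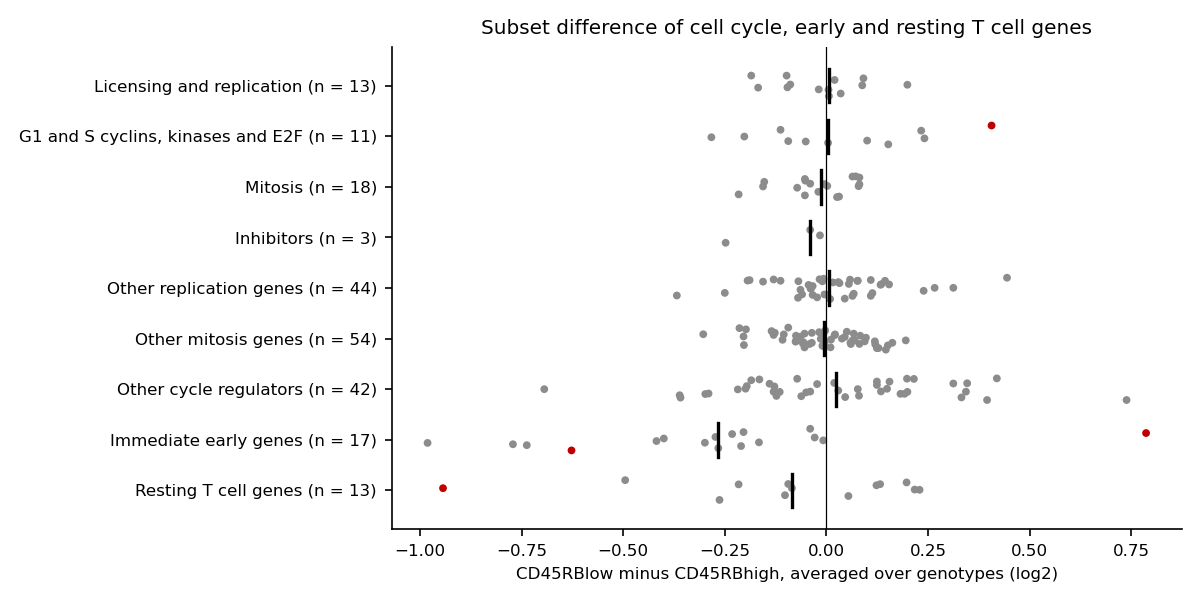
Log2 difference CD45RBlow minus CD45RBhigh, averaged over genotypes (x axis), of each gene in the 4 roles and in 5 wider lists (y axis, with the number of genes tested). Points are genes, red those with a limma adjusted p under 0.05, black bars the list medians. The roles and the other cycle lists have medians near 0, and the median of the immediate early genes is -0.27.

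The comparison of genotypes asked whether loss of CCR2 changed the cell cycle genes. Averaged over the subsets, limma called 0 of the 45 genes and 0% of all genes, with 1 cell cycle gene (Cdc25c) and 521 of all genes at an unadjusted p under 0.05. It called 0 of the 45 and 0% of all genes in CD45RBhigh cells (0 and 354 at an unadjusted p under 0.05) and likewise 0 and 0% in CD45RBlow cells (0 and 298). In all 45 genes the 95% confidence interval of the averaged difference lay within 1.5-fold, as in 89.1% of all genes. Within CD45RBhigh and CD45RBlow cells 42 and 38 of the 45 intervals did, against 73.3% and 73.4% of those of all genes. The median difference of the 45 genes, CCR2-/- minus wild type, was 0.044, against 0.020 for all genes, and -0.007 when each array was centred on its median. It was 0.079 within CD45RBlow cells, where 34 of the 45 differences were above 0 (75.6%, against 57.4% and a median of 0.026 for all genes), and this median became 0.026 with arrays centred and 0.018 without wild-type CD45RBlow replicate 1. Within CD45RBhigh cells it was 0.019, with 25 differences above 0 (55.6%, against 54.9% and a median of 0.017 for all genes), and -0.030 with arrays centred.

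The 5 largest genotype differences were those of Cdc25c, Aurkb, Cdt1, Ccnd3 and E2f1, none of which passed. Cdc25c, whose array values stand above, differed by 0.26 (standard error 0.11, interval 0.001 to 0.52, limma adjusted p = 0.94) and was higher in CCR2-/- cells in 4 of 4 pairs. Aurkb differed by 0.25 (interval -0.03 to 0.53), with 0.15 in CD45RBhigh and 0.34 in CD45RBlow cells. Ccnb2 differed by 0.14 and Cdk1 by 0.10, each higher in 4 of 4 pairs. Ccnd3 differed by 0.20 (interval -0.07 to 0.46), of which a single pair, CD45RBlow replicate 2, gave 0.50. E2f1 differed by 0.19 (interval -0.04 to 0.42) and Cdt1 by 0.22 (interval -0.09 to 0.52). All of these had limma adjusted p-values of 0.94.

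Foxm1, the factor that drives the mitotic genes, was named after its values were seen. It was the one gene of the 45 whose 4 CCR2-/- arrays lay above all 4 wild-type arrays. Of all genes, 1.67% were separated in this way in either direction. Foxm1 was so by a very thin margin, from 7.898 (wild-type CD45RBlow replicate 2) to 7.899 (CCR2-/- CD45RBlow replicate 1). Its log2 level was 7.83 and 7.87 in wild-type CD45RBhigh, 7.69 and 7.90 in wild-type CD45RBlow, 7.91 and 8.11 in CCR2-/- CD45RBhigh and 7.90 and 8.03 in CCR2-/- CD45RBlow cells, a difference of 0.16 (interval -0.05 to 0.37, limma adjusted p = 0.94). Over pairs of arrays with the same subset and replicate number, 11 of the 45 genes (24.4%) were higher in CCR2-/- cells in 4 of 4 pairs, against 12.6% of all genes, and 1 (2.22%; Cdc25a) was lower, against 6.35%. The 11 were Mcm2, Mcm4, Cdt1, Gins2, Ccnd3, E2f1, Ccnb2, Cdk1, Cdc25c, Aurkb and Foxm1. This count was not repeated with arrays centred on their medians, which took the median genotype difference of the 45 genes from 0.044 to -0.007. Pcna, Rrm2 and Mki67 had averaged differences of -0.002, -0.015 and -0.018. In the wider lists the smallest p-values were those of Myb, a factor of cycling lymphoid cells (0.39), and Pold1, the catalytic subunit of DNA polymerase delta (0.30), both with an adjusted p of 0.94 by limma. Within CD45RBhigh cells they were those of Myb (0.60) and the mitotic phosphatase Cdc25b (0.32), and within CD45RBlow cells those of Gmnn, the geminin that binds Cdt1 (0.32), and Aspm, a protein of spindle poles (0.30), all with an adjusted p of 1.

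The interaction asked whether the subset difference depended on the genotype. Limma called 0 of the 45 genes and 0% of all genes (0 and 160 at an unadjusted p under 0.05). For E2f8 the subset difference was larger in CCR2-/- cells by 0.17 (standard error 0.16, interval -0.20 to 0.55, limma adjusted p = 1.0), so the genotypes were not shown to differ. The largest estimates were those of Cdkn2c, 0.41 (interval -0.31 to 1.14), Ccne1, 0.29 (interval -0.21 to 0.79), and E2f2, 0.28 (interval -0.32 to 0.89). In the wider lists the smallest p-values were those of Ccng2, cyclin G2 (0.69), and Gins1, a subunit of the replicative helicase complex (0.42), which did not pass limma's test. Intervals here were wide: 32 of the 45 lay within 1.5-fold, against 42.7% of all genes.

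In the fit with the number as a block, limma called 0 of the 45 genes between replicates 2 and 1 (5 at an unadjusted p under 0.05) and 0.0666% of all genes (2194 of 13508 at an unadjusted p under 0.05). The 5 were Cdt1 (0.26), Tyms, thymidylate synthase (0.23), Ccne1 (0.22), Mcm5 (0.22) and Bub1, a spindle checkpoint kinase (-0.23), with adjusted p-values from 0.245 to 0.289 by limma. In all 4 groups 10 of the 45 genes were higher on replicate 2 and 1 was lower, against 2270 and 1241 of the 13508 genes tested. Because the sex-linked genes differ with the number, these differences cannot be told apart from ones of sex.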

How the data were processed

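Per the labels' protocols, RNA of sorted and stimulated cells was isolated with TRI Reagent, and 200 ng was labelled with biotin using an Affymetrix whole-transcript cDNA kit. The deposited table holds log2 expression of 41034 probe clusters. Per the submitters' processing notes, the authors used Partek and RMA for it. Versions are not given in the sources used here. RMA gives every array the same distribution of probe values before they are summarised per cluster, which can hide a shift common to most genes. The array medians of the clusters still differed slightly, from 4.92 to 5.05. Groups and replicate numbers came from the sample titles: 4 titles carry a 2, and those without a number were taken as replicate 1.

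Names came from the platform annotation, with 23521 clusters of 1 symbol, 1814 of several (left out) and 15699 unnamed here. Of the entrez identifiers 23328 matched RefSeq and 193 did not, which changed 0 symbols. The filter kept genes that reached the 40th percentile of the clusters on 2 or more arrays. Limma 3.58.1 (R 4.3.3) fitted group means to the 8 arrays together and gave 7 two-sided comparisons. The number of arrays limits the precision, with a median standard error of the 45 genes of 0.087 for averaged effects, 0.12 between 2 groups and 0.17 for the interaction.

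The genes, lists and rules were chosen with earlier results of these data known. Array values are given for genes that passed, for those with the largest differences in each role, and for a fixed set (Mki67, Pcna, Mcm2, Cdk1, D-type cyclins and inhibitors). From the wider lists, up to 6 called genes per comparison, or else 2 with the smallest p, are named. As a check of pairing, replicate 2 minus replicate 1 was correlated across genes between groups. Over all genes tested the 6 correlations were 0.11 to 0.53, over the limit of 0.1. The numbers were therefore taken as pairs in the fit with the replicate block and in the counts over pairs, though no label explains them. The fit of group means, which gave the intervals and standard errors printed, did not use them. Over the 45 cell cycle genes alone the correlations ran from -0.34 (wild-type CD45RBhigh with CCR2-/- CD45RBlow) to 0.47 (wild-type CD45RBhigh with wild-type CD45RBlow). This check cannot tell true pairs from a difference, such as that of the sex-linked genes, shared by all arrays of a number. Calculations were tested on simulated data. Alternatives were the replicate block, filters, averaging of clusters, centring, empirical Bayes settings, array weights, 2-group fits and leaving out each array.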

Additional observations from a re-analysis of the deposited data

How the results depend on the processing

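Over 123 counts of called cell cycle genes under the alternatives, 116 stayed within 1.5 times the reported count and 7 moved. These 7 are all of the subset effect averaged over genotypes, which had 15 alternatives. There, leaving out 1 array gave counts from 0 to 1, and E2f8 then passed only without CCR2-/- CD45RBhigh replicate 2. The cause was not tested, and fits without an array have less data for every gene. In every other comparison the reported count was 0 and stayed at 0. For the genotype and interaction comparisons no gene at all was called under any setting, so those counts could not move. The E2f8 difference ran from 0.36 to 0.45 with adjusted p-values from 0.0302 to 0.172 by limma, and 0.0306 with the replicate block, which changed no call of a cell cycle gene. Of 109 medians, all moved by less than the median spread within groups (0.10 on the log2 scale). The reported medians, from -0.035 to 0.079, were themselves smaller than that spread. A change of sign therefore did not count as a move, as from 0.044 to -0.007 for the averaged genotype effect with arrays centred. With 2 arrays a group the intervals bound averaged differences more tightly than those within a genotype or subset.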
